A study of Drosophila melanogaster with 69 samples.

Results

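The testes of chinmoST males were compared with wild-type testes at day 7 of adult life in bulk RNA-seq of 6 libraries, 3 per genotype, out of 69 libraries of testes and ovaries in the series. The 6 were chosen by their labels for tissue, day and strain. chinmoST is an allele of chronologically inappropriate morphogenesis (chinmo), and the wild-type animals were Oregon R. Each library was made from poly(A) RNA of about 50 to 60 pairs of whole testes pooled from adult flies raised at 25 °C. The genotype label of the chinmoST libraries does not name chinmo and instead gives the alleles Sod1[X-39] and e[1] over the balancer chromosome TM3, which carries Sb[1] and Ser[1]. The Oregon R libraries are labelled WT, so the effects of chinmoST, of the labelled alleles and of strain background cannot be told apart. Nothing in the labels says that the replicates came from separate crosses or cultures, so the p-values measure only the spread between these libraries, which may be technical.

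The Drosophila testis carries a niche of hub cells at its tip that keeps the stem cells of the germline (GSCs) and of the somatic cyst lineage (CySCs) side by side. CySCs give rise to the flat cyst cells that enclose the germ cells as these pass through spermatogonia, spermatocytes and spermatids to sperm. Chinmo is a BTB zinc finger protein downstream of JAK-STAT signalling, and its loss from the CySC lineage is known to replace cyst cells with an epithelium like that of ovarian follicle cells, with germ cells halted at an early stage. In RNA from whole organs, fewer cells of a type and less RNA per cell cannot be told apart, and that holds for every gene below.

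The 6 libraries summed to between 32462409 and 162914626 estimated counts, so that 3 counts are worth 0.0189 to 0.0947 CPM, the counts of a library scaled to a common total. Wild-type replicate 1 stood apart. Its counts fell with transcript length (r = -0.59 across genes, which are not independent, of its deviation from the mean of all 36 testis libraries with log2 length), against r = -0.058 and 0.062 in the other wild-type libraries, and it is 1 of 4 such wild-type libraries, the replicate 1 of days 3, 5, 7 and 9. The chinmoST libraries leaned the other way, with r between 0.075 and 0.31. Results are therefore also given without wild-type replicate 1, or with each library's trend with length removed, wherever either ends the call of a gene described below, and for the gene lists wherever it moves a count by more than 1 gene and over 1.5 times. Removing the trend from every library also removes any difference between the genotypes that goes with length. Calls under that correction are therefore an alternative and not a cleaner result. The youngest libraries are labelled day 1 but titled day 0, and day 1 is used here.

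The level of chinmo RNA itself did not pass the test between the genotypes, and whether the libraries separated depended on wild-type replicate 1. chinmo (FBgn0086758, at 1651258 to 1704682 on chromosome 2L of BDGP6) had 226, 377 and 412 CPM in wild-type replicates 1 to 3 and 309, 331 and 263 CPM in chinmoST replicates 1 to 3, with all 6 libraries giving log2 fold change -0.17 ± 0.26 (SE), adjusted p = 0.611. Wild-type replicate 1 lay below every chinmoST library, and wild-type replicates 2 and 3 lay above every chinmoST library. Without wild-type replicate 1 chinmo was still not called (-0.39), and with the length trend removed it was called lower (log2 fold change -0.77). Of the genes in the genotype label, e (ebony, an enzyme of cuticle pigment and amine metabolism) rose from 4.45, 5.71 and 6.18 CPM to 14, 20.1 and 24.7 CPM (log2 fold change 1.85 ± 0.25 (SE), adjusted p = 5.75e-07), and Ser (Serrate, a Notch ligand) fell from 8.48, 10.8 and 10.4 CPM to 6.97, 5.35 and 4.2 CPM (log2 fold change -0.84 ± 0.23 (SE), adjusted p = 0.00308). Sod1 and Sb were not called. With the length trend removed, chinmo, e, Ser, Sod1 and Sb were all called, 2 of these 5 higher and 3 lower.

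The difference between the genotypes was spread over many genes. Of 14910 genes tested, 7544 (50.6%) were called, that is, differed 1.5-fold or more at an adjusted p (edgeR quasi-likelihood test, Benjamini-Hochberg over all genes) under 0.05. Of these, 4148 (27.8%) were higher and 3396 (22.8%) lower in chinmoST testes, and the median log2 fold change of all genes was 0.016. At least 4-fold differences were found for 804 higher and 316 lower genes. Of all genes 61.1% did not overlap between the genotypes, 4871 (32.7%) with every chinmoST library above and 4233 (28.4%) with every chinmoST library below every wild-type library, so a lack of overlap is common among genes named below. Without wild-type replicate 1, 6841 of 15041 genes (45.5%) were called, 3877 higher (25.8%) and 2964 lower (19.7%), and 6361 of the 7544 (84.3%) kept call and direction while 0 took the opposite call. Scaling by library size alone shifted the median of all genes to 0.20 and the calls to 4940 higher and 2519 lower, so 66.2% of the calls were higher against 55.0%.

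**Figure D1:**
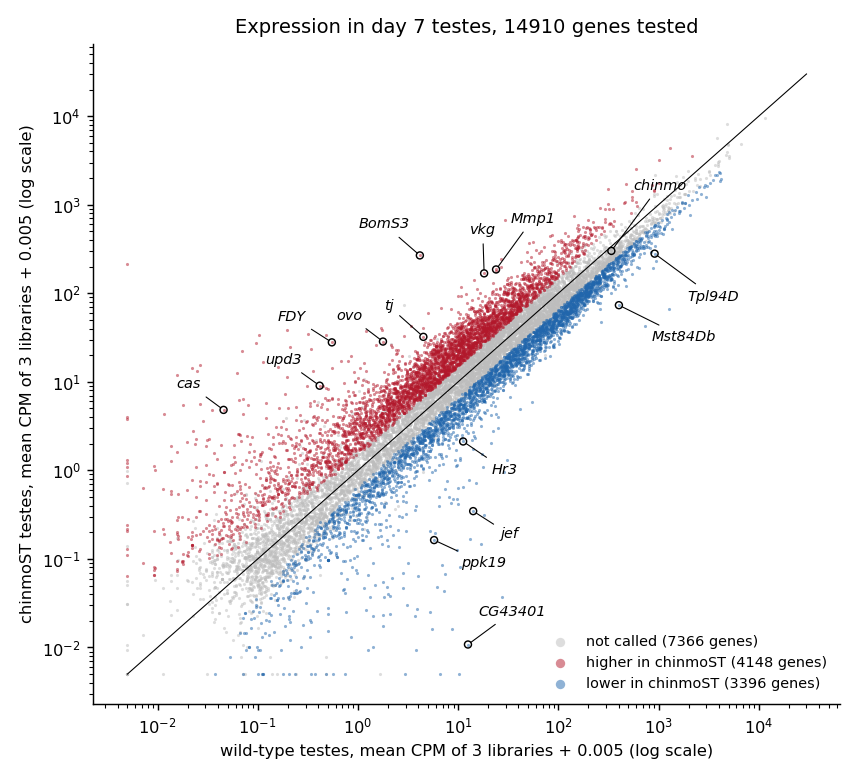
Mean CPM of 3 wild-type (x axis) and 3 chinmoST (y axis) day 7 testis libraries for 14910 genes, on log scales with 0.005 added, with called genes in red (4148 higher) and blue (3396 lower) and the diagonal marking equal levels. Called genes lie on both sides of the diagonal over the whole range of levels, chinmo lies near it, and vkg, tj, ovo and cas lie above it.

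The chinmoST libraries were not alike in degree. Among the genes called higher, chinmoST replicate 1 was the lowest of the 3 chinmoST libraries for 2846 genes (68.6%) and replicate 2 the highest for 2786 (67.2%). Among the genes called lower, replicate 1 was the highest of the 3 for 2456 genes (72.3%). Replicate 1 was thus closer to wild type than replicates 2 and 3 for most called genes of either direction.

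Genes were then sorted by their sex bias in wild-type gonads, taken from ovary and testis libraries of days 3, 5, 9 and 11 and so from none of the 6 libraries compared. Of 4596 genes higher in ovaries, 2471 (53.8%) were higher in chinmoST testes and 95 (2.07%) lower, with a median log2 fold change of 0.75. Of 8042 genes higher in testes, 3104 (38.6%) were lower and 1106 (13.8%) higher, with a median of -0.52. The 1969 genes with neither bias lay between, with 454 higher and 188 lower. Without wild-type replicate 1 the counts were 2333 ovary-biased genes higher and 2709 testis-biased genes lower. A movement toward the ovarian pattern was thus the more frequent one in both classes, and 1106 testis-biased genes went against it.

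**Figure D2:**
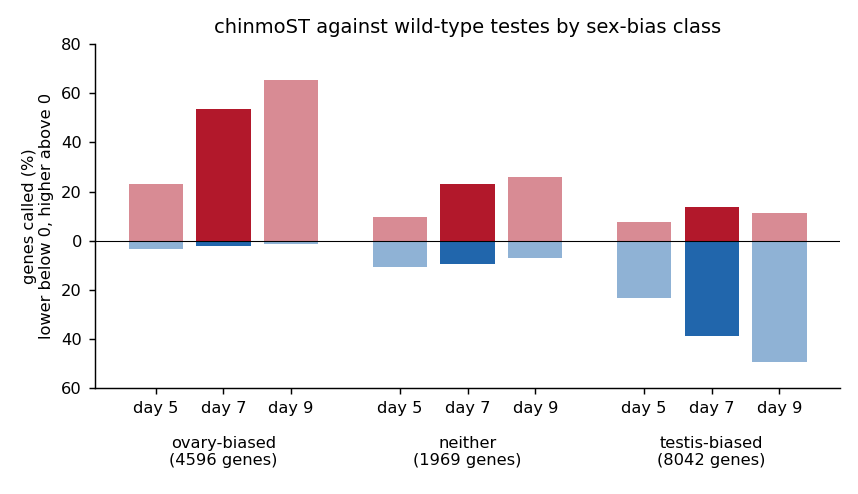
Share of ovary-biased, unbiased and testis-biased genes called higher (above 0, in %) and lower (below 0, in %) in chinmoST testes at days 5, 7 and 9, with day 7 in full colour. At day 7, 53.8% of ovary-biased genes were higher and 38.6% of testis-biased genes lower.

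Most listed CySC markers were higher in chinmoST testes. Of 9 listed genes, 7 rose and 0 fell, with a median log2 fold change of 1.75, against 27.8% higher and a median of 0.016 over all genes. The 2 not called were zfh1 and ptc. Of those that rose, tj is also listed for follicle cells, piwi for the piRNA pathway and stg for early germ cells. InR, aop and Socs36E are also listed for the hub. traffic jam (tj), which encodes a large Maf transcription factor of somatic gonad cells, had 3.37, 4.47 and 5.65 CPM in wild-type replicates 1 to 3 and 21.8, 48.7 and 26.1 CPM in chinmoST replicates 1 to 3. The groups did not overlap, and chinmoST replicate 2 was the highest (log2 fold change 2.85 ± 0.28 (SE), adjusted p = 6.92e-09). piwi, the founding member of the piRNA-binding proteins, had 4.99, 10.3 and 10.3 CPM in wild-type replicates 1 to 3 and 45.9, 104 and 46.7 CPM in chinmoST replicates 1 to 3 (log2 fold change 2.95 ± 0.32 (SE), adjusted p = 2.97e-08). The Cdc25 phosphatase gene string (stg), which drives entry into mitosis, rose by 3.04 on the log2 scale, and the JAK-STAT feedback inhibitor Socs36E went from 9.23, 11.5 and 12.8 CPM to 30.9, 42 and 39.2 CPM (log2 fold change 1.75 ± 0.21 (SE), adjusted p = 1.67e-07). Zn finger homeodomain 1 (zfh1), a transcription factor of CySCs, had 21, 30.1 and 32.4 CPM in wild-type replicates 1 to 3 and 39.2, 46 and 36.3 CPM in chinmoST replicates 1 to 3. Its levels did not overlap between the genotypes, yet the difference stayed under the 1.5-fold minimum (log2 fold change 0.54 ± 0.21 (SE), adjusted p = 0.0329), which it passed without wild-type replicate 2 (0.60), wild-type replicate 3 (0.66) or chinmoST replicate 3 (0.61).

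Markers of differentiating cyst cells did not move as one. Early cyst cell genes were higher for 2 of 2 and intermediate ones for 3 of 3, or 1 of 3 with the length trend removed. Of 7 further cyst cell markers 1 was higher, 1 was lower and 5 were not called. Wnt4 (log2 fold change 1.67), a Wnt ligand, and Pdcd4 (2.02) were higher, and alphaTub85E, a tubulin of late cyst cells, was lower (log2 fold change -0.74 ± 0.15 (SE), adjusted p = 0.000139). eyes absent (eya), a transcriptional cofactor of cyst cells, was not called (log2 fold change -0.037 ± 0.16 (SE), adjusted p = 0.855), nor was its partner so (0.06). Of 8 hub markers 4 were higher, but 3 of these, Socs36E, InR and aop, are also on the CySC list and the other is Fas3. With the length trend removed 3 hub markers were higher and 3 lower. The hub ligand unpaired 1 (upd1) had 43.6, 41.2 and 46.5 CPM in wild-type replicates 1 to 3 and 29.9, 29 and 30.2 CPM in chinmoST replicates 1 to 3, lower in every chinmoST library but short of 1.5-fold (log2 fold change -0.56 ± 0.18 (SE), adjusted p = 0.00832). It passed without wild-type replicate 2 (-0.60). CadN, a cadherin of the hub, was also short of that fold (log2 fold change -0.51) and passed without chinmoST replicate 2 (-0.85).

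**Figure D3:**
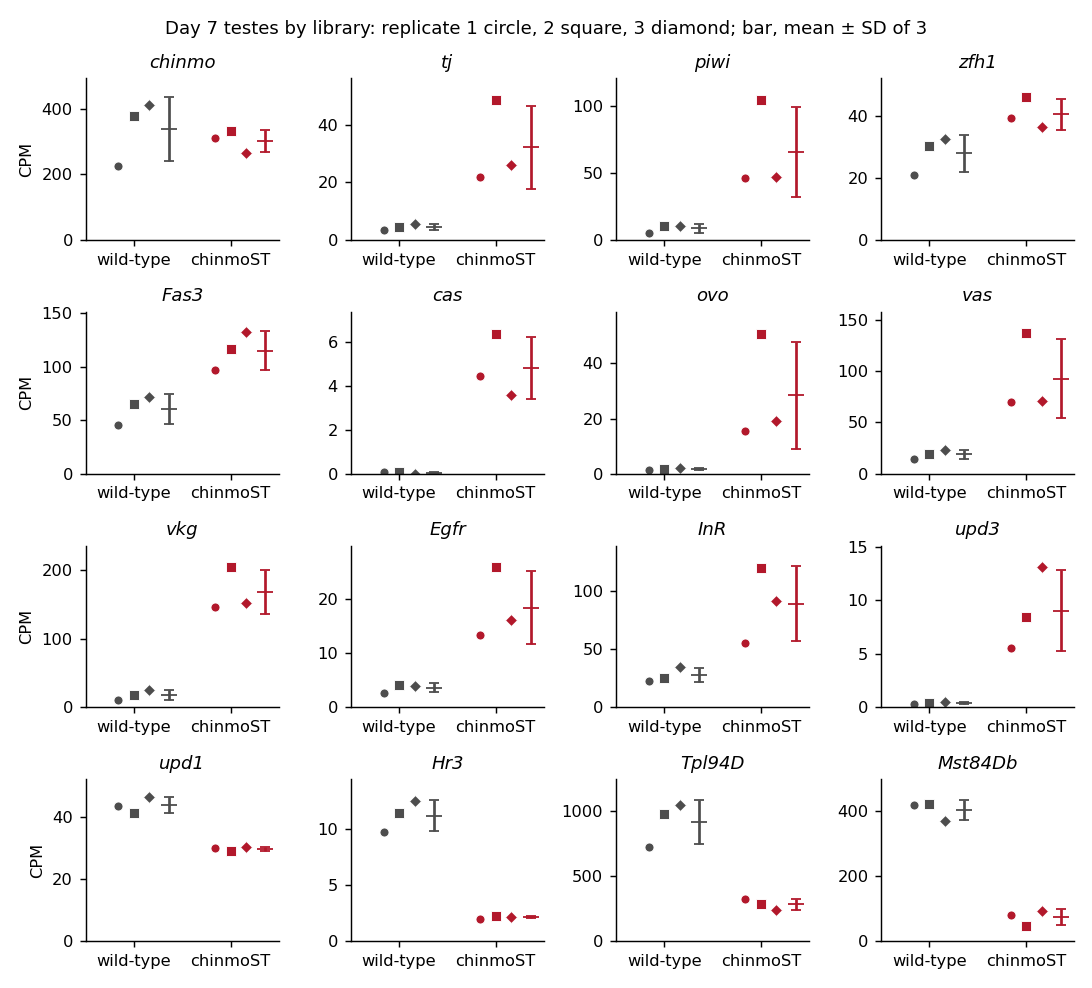
CPM of 16 genes in each of the 6 day 7 testis libraries (circle, square and diamond for replicates 1, 2 and 3), with the mean ± SD of 3 beside them, on linear axes from 0. chinmo and zfh1 were not called, tj, piwi, cas, ovo, vas and vkg are several-fold higher in chinmoST testes with replicate 2 highest, and Hr3, Tpl94D and Mst84Db are lower.

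JAK-STAT signalling keeps the niche and both stem cell types. The ligand genes split: upd1 of the hub was short of the call, while unpaired 3 (upd3), which was scarce in wild-type testes, had 0.322, 0.371 and 0.536 CPM in wild-type replicates 1 to 3 and 5.57, 8.46 and 13.1 CPM in chinmoST replicates 1 to 3 (log2 fold change 4.51 ± 0.83 (SE), adjusted p = 4.72e-05). upd2 rose as well (2.79). Downstream, the transcription factor Stat92E (log2 fold change 1.35) and the receptor domeless (dome, 1.05) were higher. The kinase hopscotch (hop, 0.65) was not called. In all, 6 of 13 pathway genes were higher and 0 lower. With the length trend removed, 4 were higher and 2 lower, and dome was no longer called (0.51).

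Genes listed for the fate and adhesion of follicle cells, the somatic epithelium of the ovary, rose in part. 16 of 26 were higher and 0 lower (median log2 fold change 1.23), against 27.8% higher over all genes. The list includes Timp, Arc1, CG4250, chic, Rab7 and Mmp1, which the paper reports as raised in chinmoST cells of the cyst lineage. A rise of these genes was therefore not an independent result, and Timp and Mmp1 are also on the basement membrane list. castor (cas), a zinc finger protein of early follicle cells, had counts of 8, 11 and 0 in the wild-type libraries and 288, 490 and 414 in the chinmoST libraries (log2 fold change 6.50 ± 0.63 (SE), adjusted p = 5.21e-09). slow border cells (slbo), a C/EBP factor of border cells, rose by 3.07 on the log2 scale. Fasciclin 3 (Fas3), the adhesion protein used to mark early follicle cells and hub cells, had 45, 65 and 71.2 CPM in wild-type replicates 1 to 3 and 96.7, 116 and 132 CPM in chinmoST replicates 1 to 3 (log2 fold change 0.93 ± 0.22 (SE), adjusted p = 0.000687), and with the length trend removed it fell short of the call (0.47). mamo, a BTB zinc finger gene, was higher (2.19), as were the capsid-like gene Arc1 (2.08) and the profilin gene chic (1.15). The 10 genes of the list that were not called included mirr (log2 fold change 0.24), cad (-0.28) and eya (-0.037).

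The products of mature follicle cells stayed low. The 22 listed eggshell genes, of which 20 were tested, summed to 11.1 to 11.9 CPM in wild-type and 17 to 23.3 CPM in chinmoST libraries. 6 of them were called higher, and 3 without wild-type replicate 1. palisade (psd), a vitelline membrane protein gene, was the largest of these rises (log2 fold change 4.29 ± 0.79 (SE), adjusted p = 5.09e-05), from a mean of 0.0467 TPM (a level scaled by transcript length) in wild-type to 0.793 TPM in chinmoST testes, against 581 TPM in wild-type ovaries of day 7. The yolk protein gene Yp1 had a mean of 0.607 TPM in chinmoST testes and 3152 TPM in wild-type ovaries. Its call was lost without any 1 of wild-type replicates 1, 2 and 3 or chinmoST replicate 3 (log2 fold changes between 2.95 and 3.87).

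Basement membrane genes were higher in chinmoST testes. Of 22 genes 19 were higher and 0 lower, with a median log2 fold change of 2.03, and their summed level was 346 to 517 CPM in wild-type and 1512 to 2298 CPM in chinmoST libraries. Both chains of collagen IV, the net that ties a basement membrane together, were among the top: vkg had 11.1, 18.3 and 25.2 CPM in wild-type replicates 1 to 3 and 147, 205 and 152 CPM in chinmoST replicates 1 to 3 (log2 fold change 3.21 ± 0.28 (SE), adjusted p = 1.11e-09), and Col4a1 had 15.2, 26.1 and 38.9 CPM in wild-type replicates 1 to 3 and 204, 308 and 227 CPM in chinmoST replicates 1 to 3 (log2 fold change 3.21 ± 0.35 (SE), adjusted p = 3.01e-08). The genotypes did not overlap for either gene. The laminin genes LanB1, LanA and LanB2 (log2 fold changes 2.51, 2.36 and 2.22), perlecan (trol, 2.24) and the integrin subunit mys (2.37) were higher too.

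Genes that cut the matrix and genes that restrain the cutting rose together. The matrix metalloproteinase gene Mmp1 had 15.5, 26.1 and 30.1 CPM in wild-type replicates 1 to 3 and 134, 201 and 222 CPM in chinmoST replicates 1 to 3 (log2 fold change 2.96 ± 0.40 (SE), adjusted p = 6.99e-07). Its inhibitor gene Timp had 13.2, 9.15 and 13.4 CPM in wild-type replicates 1 to 3 and 77.3, 113 and 105 CPM in chinmoST replicates 1 to 3 (log2 fold change 3.05 ± 0.29 (SE), adjusted p = 3.44e-09). Mmp2, the other metalloproteinase gene of the fly, was also higher (2.36). Papilin (Ppn) was called higher (1.14), a call that was lost without wild-type replicate 1 (0.68), chinmoST replicate 1 (1.09) or chinmoST replicate 2 (1.11). Ndg and Dg were not called.

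Junction and polarity genes of epithelia rose broadly but by smaller factors. 24 of 30 were higher and 0 lower, with a median log2 fold change of 1.04, and with the length trend removed 15 were higher and 1 lower. The adhesion gene Fas2 (2.20), the lateral scaffold gene discs large 1 (dlg1, 2.08) and the septate junction gene coracle (cora, 2.03) led the group. scrib, a partner of dlg1 in polarity, also rose (1.44). E-cadherin (shg) was called higher (0.90), but not without wild-type replicate 1 (0.61) or chinmoST replicate 2 (0.70).

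**Figure D4:**
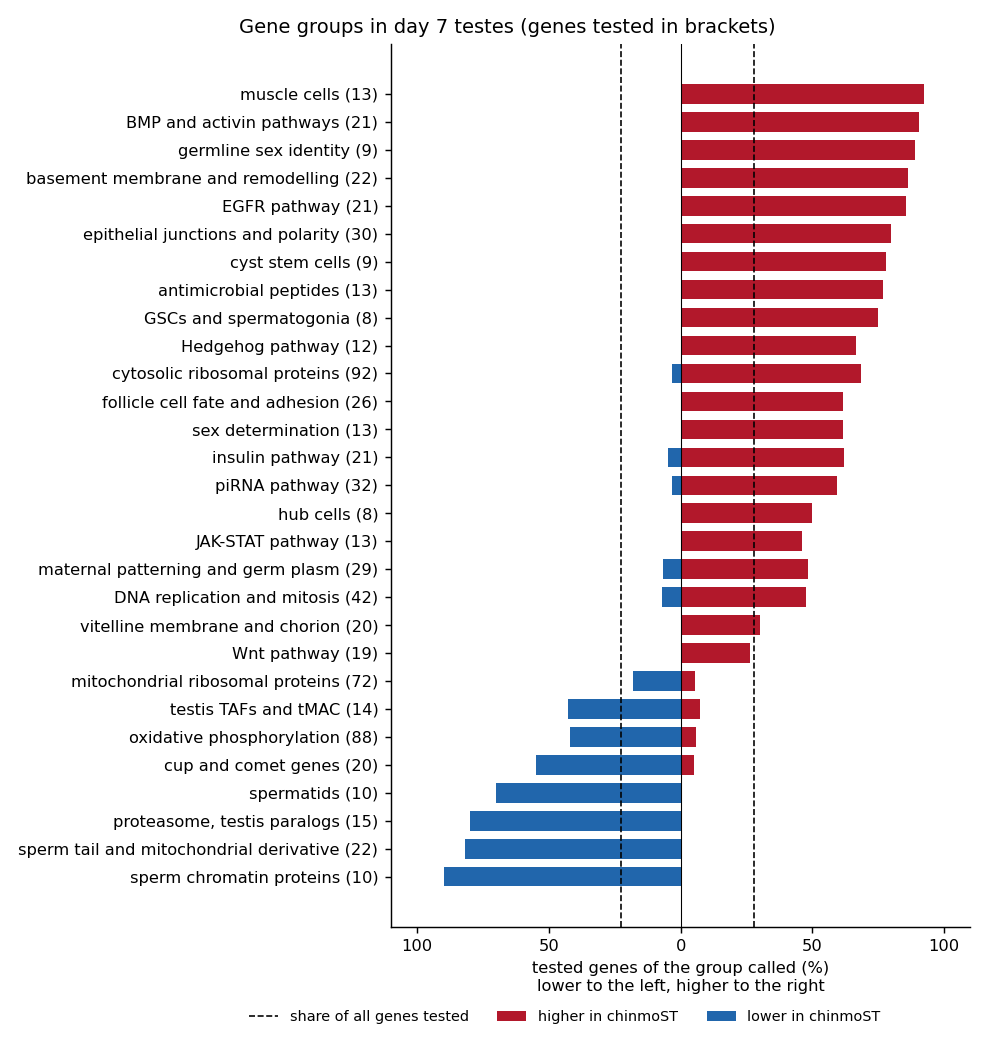
Share of the tested genes of 29 gene groups called higher (red, to the right) and lower (blue, to the left) in chinmoST day 7 testes, in %, with the number tested in brackets and dashed lines at the shares over all genes tested, 27.8% higher and 22.8% lower. Matrix, junction, stem cell and signalling groups lie to the right, and sperm groups and testis paralogs to the left.

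Receptors and transducers of several signalling pathways were higher. In the EGFR pathway, by which germ cells signal to cyst cells, 18 of 21 genes were higher and 0 lower (median log2 fold change 1.06). The receptor gene Egfr had 2.63, 4.22 and 4.01 CPM in wild-type replicates 1 to 3 and 13.3, 26.1 and 16.1 CPM in chinmoST replicates 1 to 3 (log2 fold change 2.36 ± 0.26 (SE), adjusted p = 3.1e-08). Its ligand genes grk (1.64) and spi (0.93), its inhibitor kek1 (1.82) and the MEK kinase gene Dsor1 (1.61) were higher, while argos (aos), a secreted inhibitor, was not called (-0.16). With the length trend removed 13 EGFR genes were higher and 1 lower.

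BMP and activin genes gave a similar picture, with 19 of 21 higher and 0 lower (median 1.45). dawdle (daw), an activin-like ligand, had 0.27, 0.383 and 0.189 CPM in wild-type replicates 1 to 3 and 2.25, 3.97 and 2.77 CPM in chinmoST replicates 1 to 3 (log2 fold change 3.35 ± 0.45 (SE), adjusted p = 6.3e-07), so that it was scarce in wild type and 10.2-fold more abundant in chinmoST testes. The ligands gbb (1.65) and dpp (1.01), which maintain GSCs, rose less, as did the receptors tkv (2.01), put (1.45) and wit (1.36). The repressor of BMP targets brk (1.94) and the inhibitory Smad Dad (1.92), which is itself a BMP target, were both higher. With the length trend removed 13 of the list were higher, and dpp was no longer called (0.45).

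For Hedgehog, a hub signal to CySCs, 8 of 12 genes were higher, among them the co-receptor ihog (2.42), the transcription factor ci (1.99) and the transducer smo (1.81). The receptor and target ptc was not called (log2 fold change 0.76 ± 0.39 (SE), adjusted p = 0.0957), and was called higher without wild-type replicate 3 (1.05). Of 19 Wnt genes 5 were higher, a share close to that of all genes, led by the ligands Wnt6 (2.22) and Wnt4 (1.67), and 3 were higher and 1 lower with the length trend removed. Of 6 PDGF/VEGF-related genes 5 were higher, including the ligand Pvf1 (0.87) and the receptor Pvr (1.02), which was no longer called with the length trend removed (0.45).

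In the insulin pathway 13 of 21 genes were higher and 1 lower, or 9 and 1 with the length trend removed. The receptor gene InR had 22.9, 25 and 34.4 CPM in wild-type replicates 1 to 3 and 55.7, 120.2 and 91.3 CPM in chinmoST replicates 1 to 3 (log2 fold change 1.70 ± 0.26 (SE), adjusted p = 3.65e-06). The fly's FOXO factor gene foxo (1.71) and S6k (1.63), the kinase of ribosomal protein S6, were higher, and so were the ligand Ilp6 (1.21) and the insulin-binding antagonist ImpL2 (1.03). The catalytic PI3-kinase gene Pi3K92E was called (1.06), but not without wild-type replicate 1 (0.75) or chinmoST replicate 2 (0.90).

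Ecdysone genes moved in both directions, 11 of 19 higher and 2 lower. Phantom (phtm), an early hydroxylase of ecdysone synthesis, had 0 counts in every wild-type library and 43, 177 and 110 in chinmoST replicates 1 to 3, at least 13.8-fold higher against 3 counts per library. Cyp18a1, which inactivates the hormone, rose by 3.96 on the log2 scale, and both partners of the receptor, EcR (1.89) and usp (1.74), were higher. Hormone receptor 3 (Hr3), an early-late response gene, went the other way with 9.75, 11.4 and 12.5 CPM in wild-type replicates 1 to 3 and 2, 2.21 and 2.13 CPM in chinmoST replicates 1 to 3 (log2 fold change -2.40 ± 0.26 (SE), adjusted p = 2.5e-08). It was already lower at day 1 (log2 fold change -3.22), when Cyp18a1 was not called (-0.37).

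Early germ cell genes were higher. Of 8 markers of GSCs and spermatogonia 6 rose and 0 fell (median 1.74), and stg is on this list as well as on that of CySCs. vasa (vas), a germ cell RNA helicase, had 14, 19.5 and 22.6 CPM in wild-type replicates 1 to 3 and 70, 137 and 70.5 CPM in chinmoST replicates 1 to 3 (log2 fold change 2.31 ± 0.22 (SE), adjusted p = 3.56e-09), and the translational repressor gene nanos had 3.54, 6.39 and 7.6 CPM in wild-type replicates 1 to 3 and 26.4, 46.5 and 26.8 CPM in chinmoST replicates 1 to 3 (log2 fold change 2.52 ± 0.26 (SE), adjusted p = 1.56e-08). The germline gap junction gene zero population growth (zpg) rose by 1.87 on the log2 scale. bag of marbles (bam), which starts differentiation of spermatogonia, rose less (0.86), and its partner benign gonial cell neoplasm (bgcn) was not called (-0.39) and was called lower without wild-type replicate 1 (-0.61).

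Genes listed for germline sex followed. 8 of 9 were higher and 0 lower (median 1.54), against 27.8% higher over all genes. The list includes ovo, otu, Hrb27C, eIF4A and sta, which the paper reports as rising in chinmoST germ cells. A rise of these genes was therefore not an independent result. ovo, a zinc finger factor needed in female germ cells, had 1.37, 1.84 and 2.11 CPM in wild-type replicates 1 to 3 and 15.6, 50.9 and 19.1 CPM in chinmoST replicates 1 to 3 (log2 fold change 4.02 ± 0.56 (SE), adjusted p = 1.08e-06). Its mean was 0.327 TPM in wild-type and 6.17 TPM in chinmoST testes, far from the 145 TPM of wild-type ovaries at day 7. Its target ovarian tumor (otu) rose by 1.54 on the log2 scale and Sex lethal (Sxl), the switch of female fate, by 1.98. Gene totals do not tell the sex-specific spliced forms of Sxl apart. The male germline gene Phf7 was higher as well (1.25), so the list did not divide by sex.

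Genes of the piRNA pathway, which silences transposons in gonads, were higher for 19 of 32 and lower for 1, among them the heterochromatin factor rhino (rhi, 2.16) and aubergine (aub, 1.61). With the length trend removed 13 were higher and 2 lower. Among 42 replication and mitosis genes 20 were higher and 3 lower. The genes that rose included those that load and license replication origins, such as Mcm3 (2.81), Orc1 (2.66) and Cdc6 (2.58), and the G1 kinase gene Cdk4 (3.07). The 3 that fell were Cyclin B (CycB, -0.94), Aurora A kinase (aurA, -0.97) and Cyclin B3 (CycB3, -0.59). All 3 act in division, but so does stg, which is on the same list and rose. CycB is also listed as a marker of intermediate and late spermatocytes. The CycB3 call was lost without wild-type replicate 2 or 3 (-0.50 and -0.52) or chinmoST replicate 3 (-0.46), while 5 genes of the list were lower without wild-type replicate 1 and 9 with the length trend removed.

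In the sex determination cascade 8 of 13 genes were higher and 0 lower. doublesex (dsx), whose spliced forms set somatic sex, had 3.46, 7.54 and 9.05 CPM in wild-type replicates 1 to 3 and 14.4, 26.6 and 21.6 CPM in chinmoST replicates 1 to 3 (log2 fold change 1.65 ± 0.38 (SE), adjusted p = 0.000572), and gene totals do not tell the male from the female form. The splicing cofactors fl(2)d (1.46) and Ythdc1 (1.87), both of the m6A pathway that acts on Sxl, rose. transformer (tra) differed by less than 1.5-fold (log2 fold change 0.52 ± 0.14 (SE), adjusted p = 0.00212), or by more without chinmoST replicate 3 (0.59), and fruitless (fru) was not called (-0.36). The dosage compensation RNA roX1 rose (2.14).

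Genes of spermatocytes and spermatids were lower in part. Of 14 genes of the spermatocyte transcription machinery (testis TAFs and tMAC) 6 were lower and 1 higher, and 4 were lower without wild-type replicate 1. wuc fell most (log2 fold change -1.16 ± 0.22 (SE), adjusted p = 5.81e-05), and the tMAC gene comr was not called (-0.24). Of 20 cup and comet genes, which are transcribed after meiosis, 11 were lower, such as sowi (-1.52) and sunz (-1.09), and 1 was higher. Their summed levels overlapped between the genotypes, at 11802 to 14284 CPM in wild-type and 9228 to 14401 CPM in chinmoST libraries. The male tubulin betaTub85D, a marker of spermatocytes and later stages, was still abundant in both genotypes, with 4511, 2756 and 2621 CPM in wild-type replicates 1 to 3 and 1942, 1802 and 1602 CPM in chinmoST replicates 1 to 3 (log2 fold change -0.89 ± 0.20 (SE), adjusted p = 0.000586).

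The proteins that pack sperm DNA stood at the low end, with 9 of 10 lower, against 22.8% of all genes (median log2 fold change -1.24). The transition protein gene Tpl94D had 722, 976 and 1045 CPM in wild-type replicates 1 to 3 and 321, 283 and 238 CPM in chinmoST replicates 1 to 3 (log2 fold change -1.70 ± 0.20 (SE), adjusted p = 1.4e-07). The protamine gene ProtA (-1.51) and Mst77F (-0.96), a linker-histone-like gene, were lower too. Of 22 genes of the sperm tail and the mitochondrial derivative 18 were lower, of which Mst84Db had 419, 420.4 and 368 CPM in wild-type replicates 1 to 3 and 80.3, 47 and 93 CPM in chinmoST replicates 1 to 3 (log2 fold change -2.45 ± 0.34 (SE), adjusted p = 1.17e-06), a larger fall than any other gene of that group. don juan (dj, -1.36) and the spermatid mitofusin fzo (-1.10) were also lower. All 3 chinmoST libraries lay below all wild-type libraries for Tpl94D and for Mst84Db.

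Many fly genes have a copy used mainly in male germ cells, and the copy often fell where its partner did not. Of 15 testis paralogs of proteasome subunits 12 were lower and 0 higher (median -1.10), against 22.8% lower over all genes. Of their 11 constitutive partners 4 were higher, 0 lower and 7 not called (median 0.31), a share higher that was not far from the 27.8% of all genes. Prosalpha3T fell by 1.52 on the log2 scale and Prosbeta2R2 by 1.28. Rpt3 and Rpn12, among the 4 partners called, rose by 1.47 and 1.27. Among the 9 tubulins, the male germline betaTub85D was lower (-0.89) and the general betaTub56D higher, with 189.9, 174 and 160.2 CPM in wild-type replicates 1 to 3 and 421, 656 and 588 CPM in chinmoST replicates 1 to 3 (log2 fold change 1.67 ± 0.21 (SE), adjusted p = 2.59e-07).

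In the respiratory chain the paralogs fell and most partners were not called, in pairs that were picked by their names after the values had been seen. Of 20 paralogs of oxidative phosphorylation genes named with an added L, 18 were lower and 0 higher (median log2 fold change -1.34), and 16 were lower without wild-type replicate 1. Of their 18 partners, 3 were higher and 1 lower (median -0.03). Over all genes 27.8% were higher and 22.8% lower, with a median of 0.016, so the partners did not rise as a group. The partner ATPsynbeta, a catalytic subunit of ATP synthase, was one of those that rose (1.33), and its paralog ATPsynbetaL was one of the 2 not called (-0.57), though it was called lower without wild-type replicate 3 (-0.67) or chinmoST replicate 1 (-0.70). For complex I the 49 kDa subunit gene ND-49 rose (0.80) and ND-49L fell (-1.11). Over the whole list of 88 genes 37 were lower and 5 higher, 25 and 7 without wild-type replicate 1, and 26 and 16 with the length trend removed.

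Cytosolic ribosomal protein genes were higher as a group. Of 92 genes 63 were higher and 3 lower (median log2 fold change 1.11), and 72 and 2 without wild-type replicate 1. Their summed level was 8721 to 14396 CPM in wild-type and 18894 to 27764 CPM in chinmoST libraries. RpL28 (1.90) and RpL5 (1.60) were among those that rose, and the 3 that fell were the testis-expressed copies RpL10Aa (-1.13), RpS10a (-0.82) and RpS28a (-1.56). RpS10a was not called with the length trend removed (-0.29). The RpS28a call was lost without wild-type replicate 1 (-0.80) or chinmoST replicate 2 (-1.53). Ribosomal proteins of mitochondria did not share the rise, with 4 of 72 higher and 13 lower, or 6 and 8 without wild-type replicate 1. With the length trend removed the mitochondrial group turned to 19 higher and 2 lower while the cytosolic group kept its direction with 87 higher and 1 lower.

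Y-linked genes of male fertility, transcribed in spermatocytes, were mostly not called: 2 of 11 were lower, ARY (-1.04) and Ppr-Y (-1.14), against 5 without wild-type replicate 1 and 9 with the length trend removed. The dynein genes kl-3 and kl-5, among the longest genes of the fly, were at -0.71 and -0.75, and became called lower without that library (-1.01 and -1.02). flagrante delicto Y (FDY) went the other way, with 0.48, 0.616 and 0.536 CPM in wild-type replicates 1 to 3 and 26, 34.4 and 23.3 CPM in chinmoST replicates 1 to 3 (log2 fold change 5.67 ± 0.65 (SE), adjusted p = 6.7e-08). It was higher at days 1, 5 and 9 as well (log2 fold changes 4.98, 3.66 and 4.02), and FDY reads may also come from its near-identical autosomal parent gene.

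Other tissues could be present in dissected testes, and their markers were read in the same libraries. Of 13 muscle genes, which include those of the testis sheath, 12 were higher (median 1.17), led by the tropomyosin gene Tm1 (2.38), and together they summed to 617 to 773 CPM in wild-type and 1119.8 to 1779 CPM in chinmoST libraries. Hemocyte markers were higher for 3 of 5, and 1 without wild-type replicate 1, summing to 20 to 72.7 CPM in wild-type and 107 to 129.8 CPM in chinmoST libraries, while the plasmatocyte marker Hml was not called (0.31, or 0.76 and called without wild-type replicate 2). Fat body genes were higher for 7 of 11 and lower for 1, or 3 and 1 with the length trend removed, and summed to 277 to 292 CPM in wild-type and 692 to 818 CPM in chinmoST libraries. The fat body list includes the yolk protein genes Yp1, Yp2 and Yp3, and Yp2 and Yp1 changed most among its called genes. Yolk proteins are also products of follicle cells, so these genes do not single out fat body. Collagen IV is also made by hemocytes and fat body, and the part of these tissues in the basement membrane result was not tested. Accessory gland genes did not separate the genotypes, with 0 of 12 called at sums of 198, 76.7 and 14.6 CPM in wild-type replicates 1 to 3 and 14.0, 9.11 and 207 CPM in chinmoST replicates 1 to 3.

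Antimicrobial peptide genes, targets of the Toll and Imd immune pathways, were higher for 10 of 13 and lower for 0 (median log2 fold change 3.06), with sums of 7.15 to 12 CPM in wild-type and 54.3 to 111 CPM in chinmoST libraries. AttC, an attacin gene, had 6.18, 3.76 and 5.02 CPM in wild-type replicates 1 to 3 and 60.1, 40.2 and 77.7 CPM in chinmoST replicates 1 to 3 (log2 fold change 3.57 ± 0.77 (SE), adjusted p = 0.000312). The immune-induced peptide gene BomS3 had 7.39, 2.75 and 2.3 CPM in wild-type replicates 1 to 3 and 112, 347 and 344 CPM in chinmoST replicates 1 to 3 (log2 fold change 5.99 ± 1.24 (SE), adjusted p = 0.000184), and chinmoST replicate 1 was well below replicates 2 and 3.

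The ends of the ranking held genes of several kinds. Only called genes with a name other than a CG, CR or asRNA number were ranked. They also had at least 3 counts in each library and no overlap between the genotypes, and kept the call without wild-type replicate 1. The rule left out cas, with 0 counts in wild-type replicate 3, though its rise was larger than that of BomS3. Besides BomS3 and FDY, the 10 largest rises so ranked included upd3, the metabolic P450 gene Cyp6g1 (4.47), Henna (Hn, 4.42), a phenylalanine hydroxylase, and the stress peptide gene TotC (4.38). The largest falls included jef, with 13, 14.7 and 14.7 CPM in wild-type replicates 1 to 3 and 0.404, 0.326 and 0.296 CPM in chinmoST replicates 1 to 3 (log2 fold change -5.38 ± 0.29 (SE), adjusted p = 9.35e-14), the ion channel gene ppk19 (-5.17) and the receptor genes Gr22c (-4.73), Octbeta3R (-4.37) and Or85b (-4.31). Ejaculatory bulb protein (Ebp) was called lower on the strength of 1 library, with 1.05, 37.6 and 0.442 CPM in wild-type replicates 1 to 3 and 0.279, 0.117 and 0.0956 CPM in chinmoST replicates 1 to 3, and lost the call without wild-type replicate 2 (-2.26). Of the 10 largest falls 9 were already called lower at day 1, and of the 10 largest rises 1 was called higher at that day, when 5.6% of all genes were called, 3.38% lower and 2.22% higher.

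Some genes were near 0 in 1 genotype. Of the called genes 38 had under 3 counts in every wild-type library and 57 under 3 in every chinmoST library. CG43401 had 3047, 1318 and 294 counts in the wild-type libraries and 0, 0 and 2 in the chinmoST libraries, at least 269-fold lower against 3 counts per library, and the long noncoding RNA CR40465 had 1957, 1369 and 297 counts against 0 in all chinmoST libraries, at least 221-fold lower. Both were also called lower at each of the other days, from day 1 on. The ribosomal RNA copy 18SrRNA:CR41548 had 0 counts in the wild-type libraries and 7542, 17536 and 34289 in the chinmoST libraries, but rRNA copies are near-identical and its counts are uncertain.

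Day 7 lay between days 5 and 9, which were compared with their own wild-type libraries. At day 5, 4148 genes (27.8%) were called, 1893 higher (12.7%) and 2255 lower (15.1%), and at day 9, 8698 (58.3%), 4519 higher (30.3%) and 4179 lower (28.0%). Of the genes higher at day 7, 1781 were also higher at day 5 (42.9% of the day 7 list and 94.1% of the day 5 list) and 3694 at day 9 (89.1% and 81.7%). Of the genes lower at day 7, 1969 were also lower at day 5 (58.0% and 87.3%) and 3141 at day 9 (92.5% and 75.2%). The median log2 fold change of the day 7 higher genes was 0.68 at day 5, 1.33 at day 7 and 1.41 at day 9, and that of the lower genes -0.79, -1.05 and -1.24. The day 7 medians were of genes selected at that day.

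The difference between days was tested directly. In edgeR 0 of 14910 genes (0.0%) had a genotype effect that differed between days 5 and 7, with 2566 genes at an unadjusted p under 0.05 and a smallest adjusted p of 0.0742. Between days 7 and 9 the count was 0 as well, with 835 genes at an unadjusted p under 0.05 and a smallest adjusted p of 0.199. DESeq2 called 374 genes (204 toward higher) for days 5 and 7 and 9 for days 7 and 9. Without chinmoST replicate 1, the library closest to wild type, edgeR called 490 genes, 361 toward higher, for days 5 and 7 and 6 for days 7 and 9.

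Summed levels of gene groups were compared over the same days, and some of the ratios rested on wild-type replicate 1. The ratio of chinmoST to wild-type sums for cytosolic ribosomal proteins was 1.08 at day 5, 2.1 at day 7 and 2.87 at day 9, and 1.69, 2.49 and 4.1 without wild-type replicate 1 of each day. For basement membrane genes it was 2.29, 4.23 and 4.93, and without that replicate 2.1, 3.81 and 5.03. For antimicrobial peptides it was 2.7, 8.82 and 5.3, but 7.69, 10.3 and 13.3 without that replicate, so that the order of days 7 and 9 turned. Sperm chromatin genes were at 0.532 at day 5 and at 0.423 and 0.37 at days 7 and 9, and at 0.608, 0.475 and 0.391 without that replicate. These ratios are descriptions, and the days were not tested against each other at the level of groups.

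**Figure D5:**
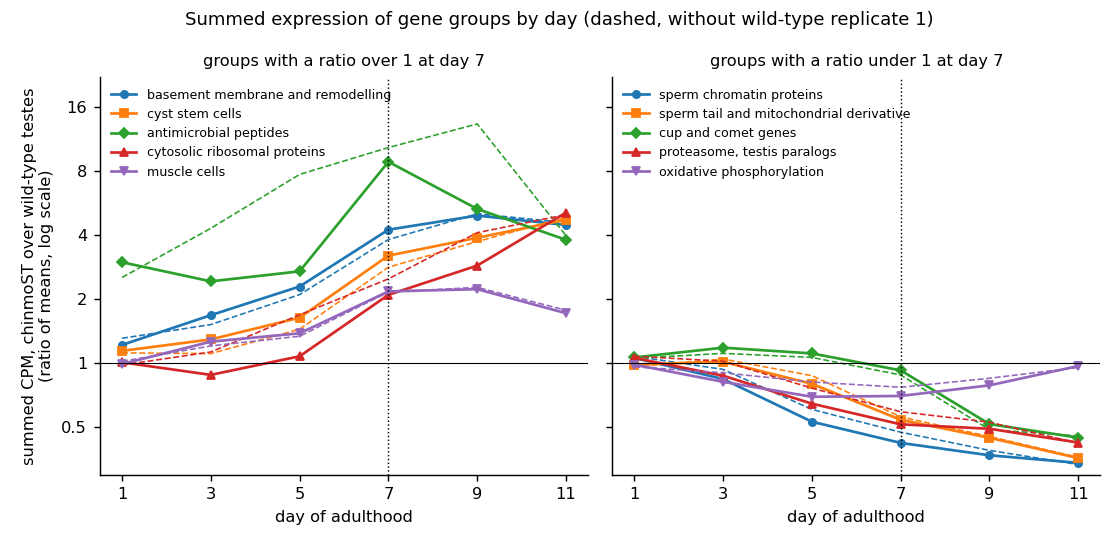
Ratio of summed CPM in chinmoST to wild-type testes (means of 3 libraries, log scale; dashed lines leave out wild-type replicate 1) by day of adulthood for 5 gene groups with a ratio over 1 at day 7 (left) and 5 with a ratio under 1 (right). At day 7 the ratio was 4.23 for basement membrane genes, 2.1 for cytosolic ribosomal proteins and 0.423 for sperm chromatin proteins.

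The calls were unevenly spread over the genome. On the X chromosome 39.0% of 2219 genes were higher and 16.3% lower, and on chromosome 4 53.5% of 101 were higher and 6.93% lower, against 23.4% and 26.7% of 2959 on 2L. By length, 11.9% of genes under 1000 nt were higher and 37.5% lower, while over 4000 nt 43.7% were higher and 6.16% lower. Without wild-type replicate 1 these shares were 13.6% and 27.3% for short and 34.6% and 10.1% for long genes. Of 1804 noncoding RNA genes 39.4% were lower and 8.65% higher.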

How the data were processed

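The authors deposited an RSEM gene table for each library, with expected counts (estimated fragments per gene, not normalized) and TPM, which RSEM scales by transcript length. The submitters' processing notes also name FastQC 0.11.9, Trim Galore 0.6.4, Bowtie2 and the dm6 build. Symbols and positions came from a BDGP6 annotation, which held 17710 of 17807 gene identifiers.

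Rounded expected counts went into edgeR 4.0.16 (R 4.3.3), where filterByExpr removed low genes, TMM set the scaling, and the quasi-likelihood test was fitted to all 36 testis libraries with 1 coefficient for each of 12 groups of genotype and day. Called genes had a Benjamini-Hochberg adjusted p under 0.05 and a fold of at least 1.5, and SEs were derived from the F statistic. CPM are TMM-scaled, and TPM served only to compare testes with ovaries. Floors of 3 counts allow for counting error alone, as PCR duplicates carried no identifiers. Replicates of a group differed by more than sampling noise.

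The members and the 52 gene lists were chosen with earlier results of these data known. Genes were named if in the genotype label or the study's text, or among the 10 largest rises or falls of the filtered ranking. Others were among the 5 most abundant on/off genes, define a list, or were one of up to 4 called genes with the largest change in it. All other genes named, such as zfh1, upd1, the laminins and the oxidative phosphorylation pairs, were chosen after their values were seen. Alternatives were DESeq2 1.42.0, library size alone, no filter, adjusted p alone, only the days compared, each library left out, wild-type replicate 1 of days 3, 5, 7 and 9 left out, a replicate block, a lowess correction for gene length and, for sex bias, leaving out replicate 1. A fit of the day 7 libraries alone without wild-type replicate 1 and the ratios of summed levels without wild-type replicate 1 were added after seeing the data.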

Additional observations from a re-analysis of the deposited data

How the results depend on the processing

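The counts of genes called, higher and lower at day 7, of ovary-biased genes higher and of testis-biased genes lower stayed within 1.5 times their value under every alternative run. Genes called ranged from 6597 (without chinmoST replicate 2) to 7731 (without chinmoST replicate 1) when 1 library was left out, and the added fit of day 7 libraries alone without wild-type replicate 1 called 3900 higher and 3250 lower. The difference between days depended most on the setting. Against 0 genes for days 5 and 7, DESeq2 called 374, library size alone 142, the length correction 361, the replicate block 1, the fit without wild-type replicate 1 of days 3, 5, 7 and 9 1, and fits without 1 library between 0 and 490. Against 0 for days 7 and 9, DESeq2 called 9 and fits without 1 library between 0 and 35. The cause was not tested. Same-numbered libraries did not deviate together (r = -0.17, -0.13 and -0.44), so the replicate block, which called 4031 genes higher and 3250 lower at day 7, pairs only numbers.

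Of 289 named or listed genes called, 222 kept the call under every alternative and 67 lost it under at least 1, most often with the length correction (36), without chinmoST replicate 2 (28) and without wild-type replicate 1 (23). 1 called gene changed sign: sog, a BMP antagonist, had -0.12 with the length correction against 0.61. RpL41, not called at -0.15, was called higher at 0.69 under the same correction. With 3 libraries per group an exact permutation test of a single gene cannot go below p = 0.1, so calls rest on the spread shared across genes and days. Wild-type replicate 3, at 32462409 counts, sets the depth for rare transcripts.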

Other observations

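Of 16 cap-binding and translation genes 4 were higher and 4 lower, shares close to the 27.8% and 22.8% of all genes, or 2 and 7 with a correction for gene length. The scaffold gene eIF4G1 rose (1.61), while the testis cap-binding copies eIF4E4 (-1.33), eIF4E3 (-0.96) and eIF4E5 (-0.94) fell, and the general eIF4E1 was not called (-0.13). Among the chaperonins, the testis copies Hsp60B, Hsp60C and Hsp60D fell (log2 fold changes -0.91, -0.88 and -0.89) and the general Hsp60A was not called (-0.084).

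Maternal RNAs of the ovary moved unevenly. Of 29 tested, 14 were higher and 2 lower (median log2 fold change 0.66), and 11 and 4 without wild-type replicate 1 and 10 and 9 with a correction for gene length. osk, which assembles germ plasm in the egg, had 0.0329, 0.308 and 0.347 CPM in wild-type replicates 1 to 3 and 1.26, 1.43 and 1.49 CPM in chinmoST replicates 1 to 3 (log2 fold change 2.70 ± 0.73 (SE), adjusted p = 0.00261). pip, a sulfotransferase gene of ventral follicle cells, was lower (-1.40). Of 26 meiotic genes 8 were higher, such as hdm (2.68) and solo (2.20), and 2 lower, or 7 and 4 with a correction for gene length. The share higher was close to the 27.8% of all genes.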
